A study of Mus musculus with 10 samples.

Results

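The genes described here are 8 genes of proteins that bind RNA in germ cells, Dazl, Ddx4, Nanos1, Nanos2, Nanos3, Dnd1, Pum2 and Elavl2, taken by symbol from a table of 36066 mouse genes in 10 RNA-seq libraries. The study compared germ cells made in culture from parthenogenetic and from fertilized stem cells, with 2 libraries in each of 5 groups. ESCs were a female embryonic stem cell line from fertilized embryos, and pESCs were a line from activated oocytes, so that all of their chromosomes are maternal. ESC-PGCLCs and pESC-PGCLCs were, by their labels, primordial germ cell-like cells induced from these lines over 2 days as epiblast-like cells and 4 further days with 500 ng/ml BMP4, SCF, EGF and LIF. PGCs were primordial germ cells, and their labels give no embryonic day. All libraries carry the strain label C57BL6. According to the study's methods, stem cell lines were derived on feeder cells from mouse embryos of another stock, and lines for induction came from mice with an Actin-GFP transgene. By the same methods, embryonic PGCs came from female embryos and were sorted by the surface markers SSEA1 and CD61 or by SSEA1 alone. The study calls the 2 libraries of a group biological replicates, each kind of stem cell is labelled as a cell line, and the labels do not tie libraries to separate cultures or animals, so p-values measure the spread between these libraries. ESC and pESC also differ as lines, so that parthenogenetic origin and the line itself cannot be told apart.

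Early germ cells rely on control of messenger RNA after it is made, because their transcription and chromatin are being reset. DAZL binds messenger RNAs and directs their translation or stability as germ cells commit to gametogenesis, and DDX4 (also called VASA or MVH) is the DEAD-box RNA helicase by which germ cells are commonly recognized. NANOS proteins are zinc finger partners of PUMILIO proteins and bring the CCR4-NOT deadenylase to their targets, which shortens the poly(A) tail. NANOS3 keeps migrating PGCs alive, NANOS2 belongs to the male fetal germline, and NANOS1 is the member of the family that mouse fertility does not need. DND1 is a partner of NANOS proteins, and its loss kills PGCs. PUM2 is one of the PUMILIO proteins that recognize a fixed RNA element and is made in many tissues, and ELAVL2 is a neuronal and germ cell member of the Hu family, which bind AU-rich RNA.

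The values are TPM, in which the reads of a gene are corrected for its length and every library is brought to one total, so levels of different genes can be compared per length. On GRCm38 with the GENCODE M21 annotation all 8 are protein-coding genes, and the places of 7 are given. Dazl lies on chromosome 17 at 50279395 to 50293636 (minus strand), Ddx4 on chromosome 13 at 112598333 to 112652475 (minus), and Elavl2 on chromosome 4 at 91250763 to 91400785 (minus). Nanos1 lies on chromosome 19 at 60755987 to 60759914 (plus), Nanos2 on chromosome 7 at 18987400 to 18988962 (plus), and Nanos3 on chromosome 8 at 84173731 to 84185217 (minus). Pum2 lies on chromosome 12 at 8674134 to 8752581 (plus). Of the exon bases of Nanos2, 49.0% overlap Gm45058 on the other strand, and 5.80% of those of Dnd1 overlap Wdr55 on the other strand. Counting by strand is not stated, so reads there cannot be assigned to 1 gene. The other 6 overlap no gene and share no stretch of 100 bases with another gene's transcripts.

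Sequence upstream of the start is shown for 4 genes, whose 250 bases before the RefSeq start run from rich in CpG to none. Germline genes with CpG-rich promoters are well known to be held silent by DNA methylation in other tissues. Each run ends at the RefSeq start or, where an annotated exon begins earlier, just before that exon (RefSeq, GRCm38.p6, 5′ to 3′ on the gene's strand), with CpG dinucleotides in capitals. The runs are chr17:50293637-50293870 for Dazl, chr13:112652476-112652560 for Ddx4, chr8:84176553-84176802 for Nanos3 and chr7:18987274-18987399 for Nanos2. The Nanos3 run lies inside the annotated span of the gene but in no annotated exon.
Dazl: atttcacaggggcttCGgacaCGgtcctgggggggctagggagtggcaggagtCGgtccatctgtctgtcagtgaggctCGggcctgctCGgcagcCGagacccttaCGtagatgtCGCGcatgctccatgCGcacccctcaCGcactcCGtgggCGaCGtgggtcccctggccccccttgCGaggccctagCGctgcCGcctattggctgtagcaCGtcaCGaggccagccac
Ddx4: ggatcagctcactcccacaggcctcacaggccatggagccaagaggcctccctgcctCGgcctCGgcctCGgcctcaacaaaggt
Nanos3: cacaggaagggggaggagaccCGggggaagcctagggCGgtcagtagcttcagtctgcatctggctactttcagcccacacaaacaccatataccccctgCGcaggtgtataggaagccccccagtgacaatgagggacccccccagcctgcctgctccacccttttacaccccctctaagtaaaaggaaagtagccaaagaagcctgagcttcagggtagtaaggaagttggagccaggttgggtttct
Nanos2: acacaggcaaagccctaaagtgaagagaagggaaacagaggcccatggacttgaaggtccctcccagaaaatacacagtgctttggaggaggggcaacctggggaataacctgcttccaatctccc
The Dazl run holds 19 CpG in 234 bases, the Ddx4 run 3 in 85, the Nanos3 run 3 in 250 and the Nanos2 run 0 in 126. Over the whole 250 bases before the RefSeq start, the counts were 31 CpG for Ddx4, 25 for Nanos1, 20 for Dazl, 3 for Nanos3 and 0 for Nanos2, against a median of 6 over 32851 such windows. Of the 250 bases, 165 lie in or after an annotated exon for Ddx4, 124 for Nanos2 and 16 for Dazl. Most of the 31 CpG of Ddx4 therefore lie in or after an annotated exon, outside the run shown. A lower count than that of Ddx4 was found in 94.81% of all windows, and a lower count than that of Nanos3 in 29.03%. Pum2 has 3 listed starts with 30 to 36 CpG and Elavl2 has 6 with 10 to 21, so 7 of the 8 genes matched, with 14 windows in all.

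These windows were searched on both strands for 5 short motifs. The E-box CACGTG was found once before Ddx4, beginning 29 bases before the start, and 6.02% of all windows hold one. The E2F-type motif TTCCCGC was also found before Ddx4, at 136 bases, where its letters overlap a GC box (GGGCGG), and before Pum2, at 106 bases from 1 of its starts, and 3.82% of windows hold it. The CCAAT box stood 47 bases before the start of Dazl, 109 and 63 bases before that of Ddx4, and 134 and 118 bases before that of Nanos2, and also before Nanos1 and Elavl2, in a background of 33.9% of windows. GC boxes, present in 32.7% of windows, stood before Ddx4, Nanos3, Nanos1, Pum2 and Elavl2, and the TATA box TATAAA, present in 12.4%, before Nanos2 at 33 bases. Dazl and Ddx4, whose levels differed most between stem and germ cells, thus shared of the 5 motifs the CCAAT box alone. All of the Ddx4 matches lie within the 165 bases before its RefSeq start that are in or after an annotated exon. So do those of Nanos2 at 118 and 33 bases, within its 124. A match of letters does not show that a factor binds there.

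Before the results, the labels were checked against markers. The summed level of 6 stem cell genes, mostly Nanog and Zfp42, was 619 to 1009 TPM in the 4 stem cell libraries and 134 to 220 TPM in the 6 germ cell libraries. Of the 6, 5 fell and 1 rose in ESC-PGCLCs against ESCs, the 1 being Sox2, at 32.7 to 62.4 TPM in stem cells, 97.3 to 110 TPM in ESC-PGCLCs, 23.9 to 29.7 TPM in pESC-PGCLCs and 75.1 to 83.4 TPM in PGCs. Pou5f1, a pluripotency gene that early PGCs normally keep, was 0 to 0.374 TPM in ESC-PGCLCs, 1.63 to 3.14 TPM in PGCs and 2.88 to 2.98 TPM in pESC-PGCLCs. In stem cells Pou5f1 was already low, at 19.0 to 23.5 TPM in ESCs and 7.49 to 7.80 TPM in pESCs, where Nanog was 403 to 674 TPM. The 6 early PGC genes, mostly Dppa3, summed to 395 to 909 TPM in stem cells and 3255 to 5737 TPM in germ cells. Of these 6, 4 were higher and 2 lower in ESC-PGCLCs against ESCs. The 2 were Alpl, with means of 14.9 TPM in ESCs and 4.42 TPM in ESC-PGCLCs, and Prdm14, with 17.6 and 17.4 TPM. Markers of cells that sorting or culture should exclude were present: 8 gonadal somatic genes summed to 18.1 to 23.0 TPM in ESC-PGCLCs, 43.3 to 49.6 TPM in pESC-PGCLCs and 84.6 to 93.4 TPM in PGCs, against 3.83 to 4.80 TPM in stem cells. The stem cell sum was nearly all Amhr2, with group means of 3.89 and 4.37 TPM. In ESC-PGCLCs against ESCs 7 of the 8 were higher and 1 lower, the 1 being Amhr2, at a mean of 1.79 TPM. The blood list, nearly all of it haemoglobin, summed to 487 to 556 TPM in ESC-PGCLCs, 2869 to 3397 TPM in pESC-PGCLCs and 1960 to 2147 TPM in PGCs, against 0.00621 to 4.01 TPM in stem cells, while Ptprc, the pan-leukocyte gene, did not exceed 0.103 TPM. Mesenchyme genes summed to 0.184 to 0.499 TPM in stem cells and 3.71 to 10.4 TPM in germ cells, led by Col3a1, with Thy1 the exception at 0 in 5 of the 6 germ cell libraries. Neuronal genes, the other tissue of Elavl2, summed to 2.08 to 3.52 TPM in germ cells and 6.66 to 16.2 TPM in stem cells. The stem cell sum was mostly Tubb3, with group means of 14.5 and 7.99 TPM there and 0.829 to 1.49 TPM in germ cells. Map2 went the other way, with group means of 0.133 to 0.174 TPM in stem cells and 1.09 to 1.78 TPM in germ cells. Of the 3 neuronal genes tested, 2 were higher and 1 lower in PGCs than in the mean of stem cells. The part of this other RNA in the results was not tested. Haemoglobin and gonadal somatic RNA are not usual in germ cells induced in culture for 4 days, and the names ESC-PGCLC and pESC-PGCLC are used here as the labels give them. Dazl was 1084 to 1821 TPM in the 2 kinds of PGCLC and 1958 to 2095 TPM in PGCs. Ddx4 was 186 to 281 TPM in PGCLCs and 189 to 303 TPM in PGCs. Whether such levels go with 4 days of induction was not tested. Reads recovered from the TPM ran from 6779838 (ESC-PGCLC replicate 2) to 18572901 (ESC replicate 2) per library, and the median level of the 9024 genes with at least 1 TPM everywhere was lowest in pESC replicate 1.

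**Figure D1:**
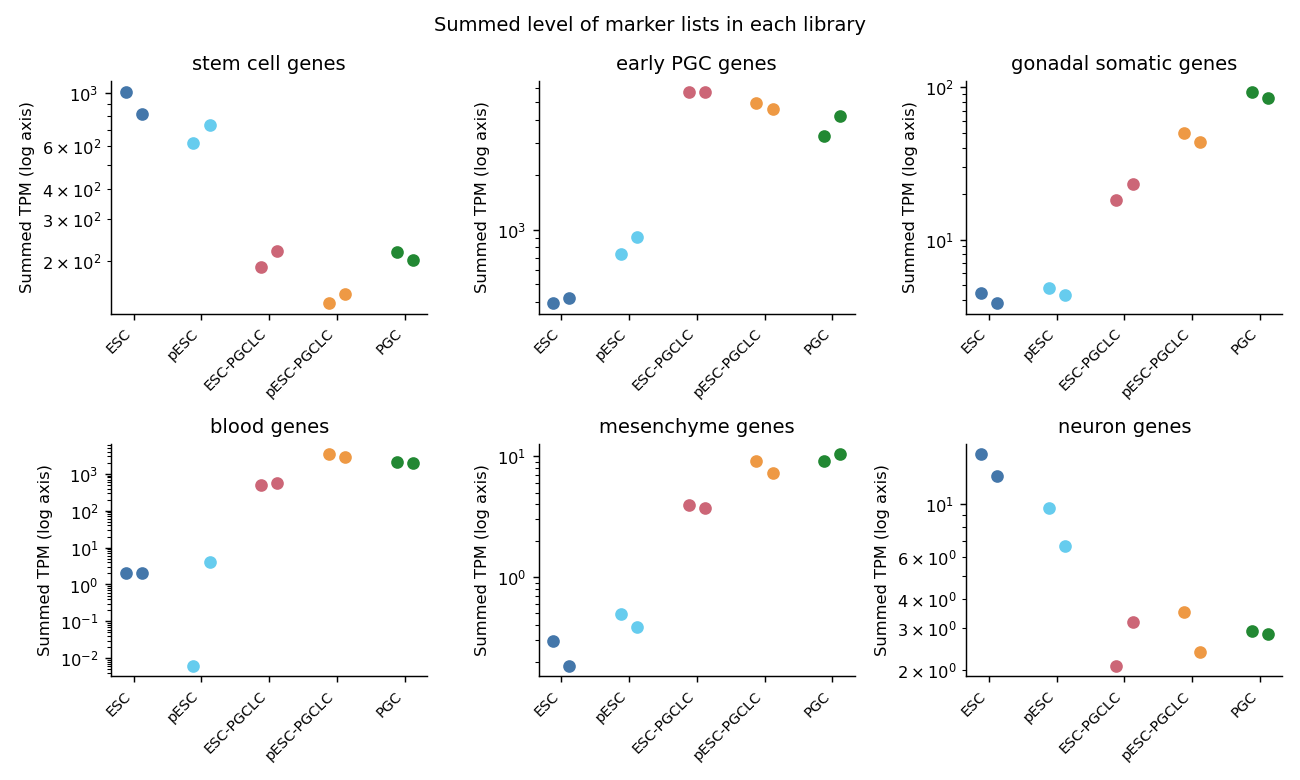
Summed TPM (log axis) of 6 marker lists in each of the 10 libraries, 2 points per group. The stem cell sum is lower in all 6 germ cell libraries, though Sox2 alone of its genes rose in ESC-PGCLCs. The early PGC sum is higher in all 6, though 2 of its genes, Alpl and Prdm14, were lower in ESC-PGCLCs. Gonadal somatic and blood sums are also higher in germ cells, blood most in pESC-PGCLCs at 2869 to 3397 TPM, though Amhr2 of the gonadal somatic genes was lower in ESC-PGCLCs.

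Dazl and Ddx4 set the germ cell libraries apart from the stem cells by about 2 orders of magnitude. Dazl was 13.2 and 13.6 TPM in ESCs, 12.1 and 18.7 TPM in pESCs, 1664 and 1821 TPM in ESC-PGCLCs, 1084 and 1115 TPM in pESC-PGCLCs, and 1958 and 2095 TPM in PGCs. The 3 germ cell groups did not overlap each other or the stem cells, and the stem cell groups overlapped. These values rested on 406 to 618 recovered reads in a stem cell library and 28314 to 72306 in a germ cell library. By group mean Dazl stood at rank 65 of 36066 genes in PGCs, 81 in ESC-PGCLCs and 132 in pESC-PGCLCs, against 4582 in ESCs and 3719 in pESCs. Dazl was therefore not silent in stem cells, and in germ cells it was among the most abundant messenger RNAs of the table.

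Ddx4 was 2.63 and 3.35 TPM in ESCs, 1.51 and 3.10 TPM in pESCs, 260 and 281 TPM in ESC-PGCLCs, 186 and 191 TPM in pESC-PGCLCs, and 189 and 303 TPM in PGCs. Its 2 PGC libraries lay on either side of ESC-PGCLCs and overlapped pESC-PGCLCs, and the 2 kinds of PGCLC did not overlap. In every germ cell group Dazl was higher than Ddx4 per length, with group means of 1742 against 270 TPM in ESC-PGCLCs.

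The Nanos genes had 3 different levels and patterns. Nanos3 was 6.46 and 5.19 TPM in ESCs, 4.56 and 4.49 TPM in pESCs, 38.5 and 34.3 TPM in ESC-PGCLCs, 64.1 and 71.9 TPM in pESC-PGCLCs, and 25.8 and 50.6 TPM in PGCs. Both pESC-PGCLC libraries were above every library of the other groups, which held for no other gene of the 8. The 2 PGC libraries lay on either side of ESC-PGCLCs.

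Nanos1 was low in all groups, at 1.16 and 2.16 TPM in ESCs, 0.666 and 1.65 TPM in pESCs, 4.98 and 3.0 TPM in ESC-PGCLCs, 4.96 and 5.06 TPM in pESC-PGCLCs, and 10.4 and 8.54 TPM in PGCs. PGCs were above all other libraries, and the 2 kinds of PGCLC overlapped. Nanos2 was listed at 0 in 7 libraries and at 0.225, 0.10 and 0.0708 TPM in pESC-PGCLC replicate 1 and the PGC libraries, which is 3, 1 and 1 recovered reads. Both groups lie at or under a floor of 3 reads per library, so no fold is given, and a difference in Nanos2 was not detectable at this depth. A gene of the median exon length needs 0.116 to 0.338 TPM for 3 reads, counting error only.

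Dnd1 was 5.0 and 4.81 TPM in ESCs, 4.91 and 5.50 TPM in pESCs, 23.4 and 29.9 TPM in ESC-PGCLCs, 27.3 and 25.6 TPM in pESC-PGCLCs, and 46.1 and 39.6 TPM in PGCs. The stem cell groups overlapped, as did the PGCLC groups, and PGCs were above both. Pum2 was the most evenly distributed gene of the 8, at 16.2 and 19.0 TPM in ESCs, 10.2 and 17.2 TPM in pESCs, 31.2 and 30.8 TPM in ESC-PGCLCs, 32.2 and 34.4 TPM in pESC-PGCLCs, and 46.4 and 46.5 TPM in PGCs. No germ cell library overlapped a stem cell library. In stem cells Pum2 stood at a level per length near that of Dazl, and in PGCs the mean of Dazl was 2027 TPM and that of Pum2 46.4 TPM.

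Elavl2 was 2.85 and 3.95 TPM in ESCs, 1.98 and 4.45 TPM in pESCs, 44.4 and 56.6 TPM in ESC-PGCLCs, 25.2 and 22.6 TPM in pESC-PGCLCs, and 59.7 and 40.2 TPM in PGCs. pESC-PGCLCs were below both other germ cell groups, and those overlapped each other. In pESC replicate 1 the levels of Dazl, Ddx4, Nanos1, Pum2 and Elavl2 were below those of the other 3 stem cell libraries, which is the library with the lowest median of all genes.

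**Figure D2:**
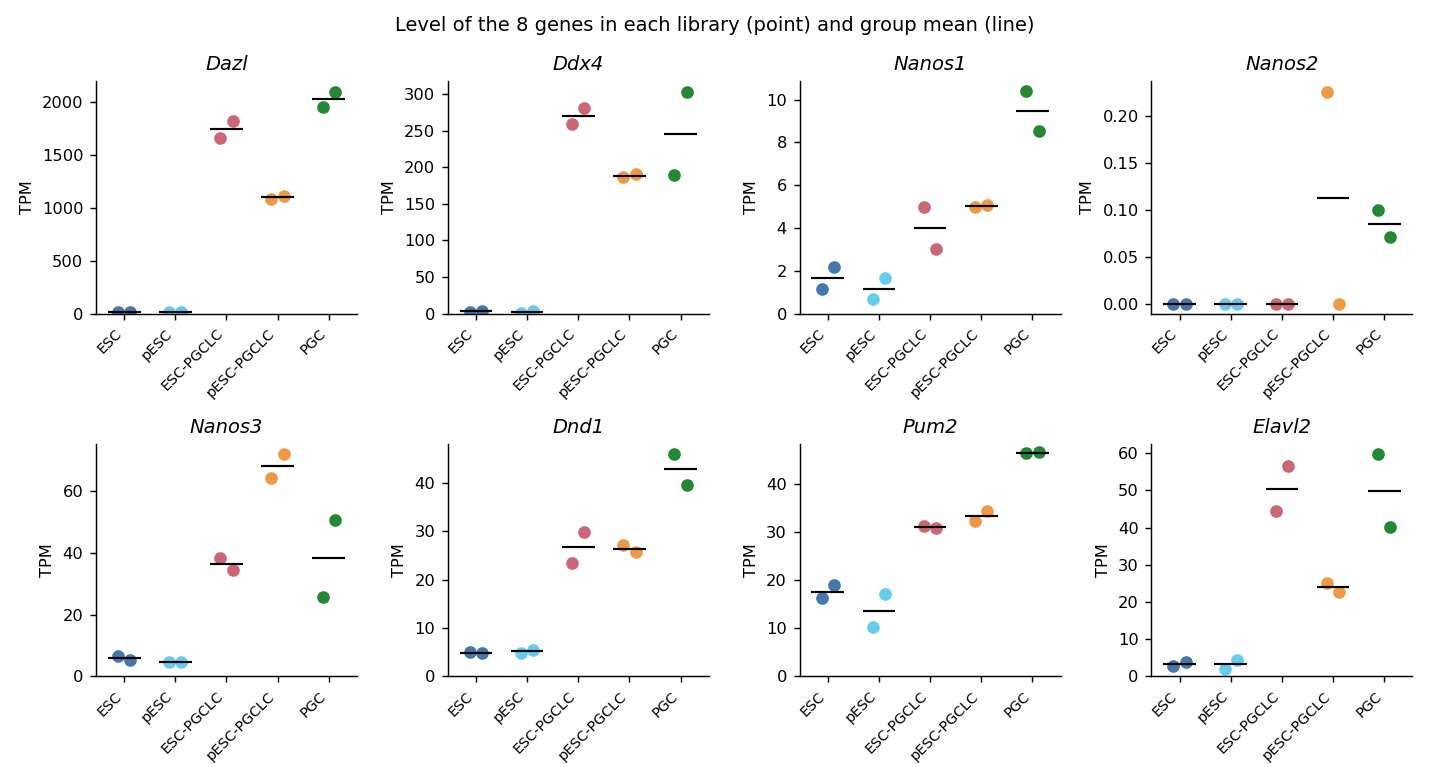
TPM of each of the 8 genes (linear axes, a different scale in each panel) in the 2 libraries of each group, with the group mean as a line. Dazl reaches 2095 TPM in PGCs, Nanos3 is highest in pESC-PGCLCs at 64.1 and 71.9 TPM, and Nanos2 does not exceed 0.225 TPM.

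The first comparison asked which of these genes differ between germ cells and the stem cells from which, by their labels, they were induced. In ESC-PGCLCs against ESCs 5 of the 8 rose, Dazl, Ddx4, Elavl2, Nanos3 and Dnd1, and 0 fell. In pESC-PGCLCs against pESCs 7 of the 8 rose, all but Nanos2, and 0 fell. To be called, a gene needed a change of 2-fold or more on the log2(TPM + 1) scale and a limma adjusted p below 0.05, and all 8 genes passed the filter on low values, Nanos2 through 2 libraries. Of all 27259 genes tested, 15.3% were called higher and 14.5% lower in ESC-PGCLCs, and 20.8% higher and 6.8% lower in pESC-PGCLCs. Of the calls in pESC-PGCLCs 75.4% were higher, and 46.7% after median centring of the libraries. The median difference of the 8 was 2.34 against 0.05 for all genes in the first comparison and 2.39 against 0.22 in the second.

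Dazl had the largest rise of the 8 on the log2(TPM + 1) scale. The ratio of mean TPM was 129.9 for ESC-PGCLCs over ESCs and 71.5 for pESC-PGCLCs over pESCs. On the log2(TPM + 1) scale the differences were 6.92 ± 0.19 (SE, n = 2 per group, limma adjusted p = 1.11e-06) and 6.10 ± 0.19 (adjusted p = 2.06e-06). Ddx4 followed on that scale, with differences of 6.09 ± 0.28 (limma adjusted p = 3.72e-06) and 5.88 ± 0.28 (adjusted p = 6.4e-06). Its ratios of mean TPM were 90.5 and 81.8, so by ratio Ddx4 rose more than Dazl from pESCs. For low genes the log2(TPM + 1) scale understates the change, as it does for Ddx4 in stem cells.

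The genes of the NANOS and DND1 partnership rose less. Nanos3 rose by 2.46 ± 0.28 (limma adjusted p = 2.14e-04) from ESCs and 3.64 ± 0.28 (adjusted p = 4.64e-05) from pESCs, with ratios of mean TPM of 6.24 and 15.0. Dnd1 rose by nearly the same amount from both, 2.22 ± 0.16 (adjusted p = 2.36e-05) and 2.15 ± 0.16 (adjusted p = 4.15e-05). Nanos1 rose by 1.52 ± 0.31 from pESCs (adjusted p = 0.00451), and the difference from ESCs was 0.90 ± 0.31 (adjusted p = 0.0419), under the 2-fold minimum. Without ESC replicate 2 that difference was 1.18 (adjusted p = 0.0439) and without ESC-PGCLC replicate 2 it was 1.19 (adjusted p = 0.0341), which would count as a rise.

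Pum2, the partner of NANOS proteins, rose by 1.27 ± 0.22 from pESCs (limma adjusted p = 0.00214), and the difference from ESCs was 0.79 ± 0.22 (adjusted p = 0.0193), under 2-fold. The call from pESCs was lost without pESC replicate 1 (0.91), and also when each library was centred on the median of widely expressed genes (0.52) or quantile normalized (0.70), and with the 2 groups fitted alone (1.27, adjusted p = 0.0524). Elavl2 rose by 3.55 ± 0.32 from ESCs (adjusted p = 6.09e-05) and 2.62 ± 0.32 from pESCs (adjusted p = 3.48e-04), with ratios of 14.9 and 7.43.

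PGCs were compared with the mean of the 2 kinds of stem cell in the same fit. All of the 8 but Nanos2 were higher, by 7.06 ± 0.16 for Dazl, 6.07 ± 0.24 for Ddx4, 3.58 ± 0.27 for Elavl2, 2.85 ± 0.14 for Dnd1, 2.60 ± 0.24 for Nanos3, 2.15 ± 0.26 for Nanos1 and 1.54 ± 0.19 for Pum2, with limma adjusted p-values between 3.98e-07 and 2.24e-04. In all, 25.3% of the tested genes were called higher in PGCs and 8.06% lower, so that 75.8% of the calls were higher, against 49.7% after median centring. The median of the 8 was 2.73 and that of all genes 0.28. Pum2 was at 0.76 after median centring, under 2-fold. This comparison shares its stem cells with those above. In bulk RNA a smaller share of germ cells and less RNA per germ cell cannot be told apart, and the marker sums given above differed between the same groups.

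**Figure D3:**
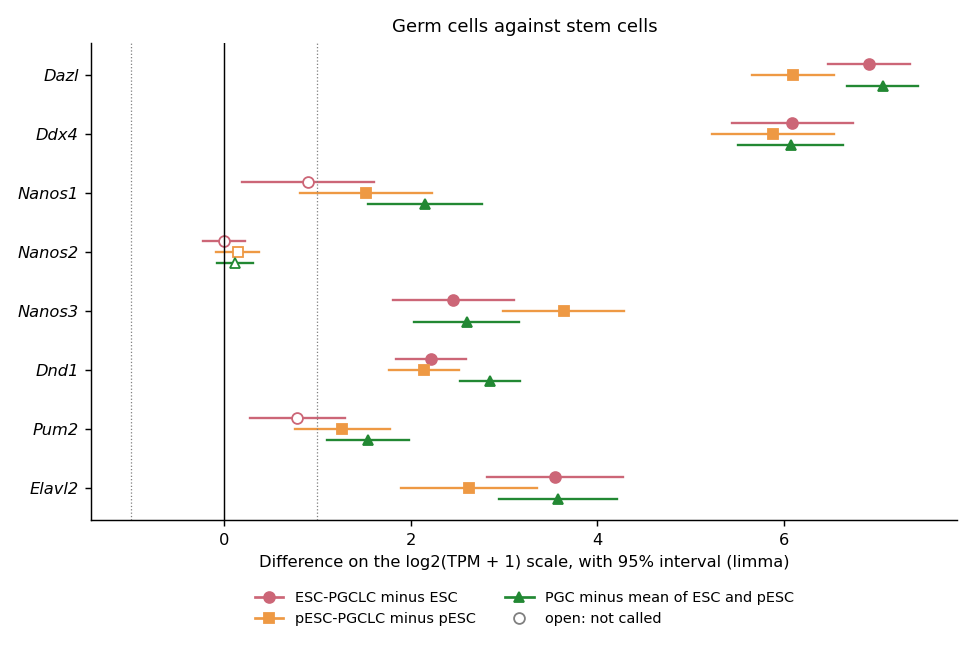
Difference of each gene on the log2(TPM + 1) scale with its 95% limma interval, for ESC-PGCLCs minus ESCs, pESC-PGCLCs minus pESCs and PGCs minus the mean of both stem cells; filled symbols passed the call, dotted lines mark 2-fold. Dazl and Ddx4 lie between 5.88 and 7.06 in all 3, and Nanos1 and Pum2 are open for ESC-PGCLCs at 0.90 and 0.79.

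Between the 2 kinds of stem cell 0 of the 8 genes were called in either direction, in a comparison in which 0.781% of all tested genes were. That share rests on 213 genes, which became 2 without ESC replicate 1, 18 without ESC replicate 2, 6 without pESC replicate 1 and 962 without pESC replicate 2. With p below 0.05 before adjustment, and 2-fold, 0 of the 8 passed as well, and voom on recovered reads called 0. The largest difference was −0.38 for Pum2 and the others lay between −0.32 and 0.16, with 2 above 0, 5 below and Nanos2 at 0. The interval for Dazl was −0.28 to 0.60 and that for Ddx4 −0.96 to 0.34, and at the low level of Ddx4 this scale does not leave out a 2-fold difference in TPM. The median of the 8 was −0.21 and that of all genes −0.06.

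The second question was whether origin left a difference in the PGCLCs. Of the 8 genes 1 was called between pESC-PGCLCs and ESC-PGCLCs, Elavl2, which was lower in pESC-PGCLCs by −1.04 ± 0.32 (SE, n = 2 per group, limma adjusted p = 0.0483; 25.2 and 22.6 against 44.4 and 56.6 TPM). Across all genes 13.4% were called in either direction and 3.08% as lower, so the 1 call among the 8 is near the share called in either direction. The call was lost on leaving out any 1 of the 4 libraries, with differences of −0.87 without ESC-PGCLC replicate 2, −0.96 without pESC-PGCLC replicate 2, −1.11 without pESC-PGCLC replicate 1 and −1.21 without ESC-PGCLC replicate 1, and adjusted p-values of 0.0861 to 0.205. Neuronal genes, in whose tissue Elavl2 is also made, summed to 2.08 to 3.20 TPM in ESC-PGCLCs and 2.37 to 3.52 TPM in pESC-PGCLCs, and their part was not tested.

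Dazl was lower in pESC-PGCLCs by −0.66 ± 0.19 (limma adjusted p = 0.0395), with a ratio of mean TPM of 0.631 and no overlap between the groups, which missed the 2-fold minimum. After median centring it was −1.10 (adjusted p = 0.0019) and counted as lower. Ddx4 was at −0.52 ± 0.28 (adjusted p = 0.239) and Nanos3 at 0.88 ± 0.28 (adjusted p = 0.0559), each with groups that did not overlap, and neither passed. Nanos1 stood at 0.30, Pum2 at 0.10 and Dnd1 at 0.00, and the interval for Dnd1 was −0.38 to 0.37. After median centring Nanos1 was at −0.06 and Pum2 at −0.33, and quantile normalization also placed both below 0. Gonadal somatic and blood marker sums were higher in pESC-PGCLCs than in ESC-PGCLCs, by the values given above, and how far this bears on Dazl, Ddx4 and Elavl2 was not tested. The median of the 8 was 0.05 and that of all genes 0.12.

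The interaction, the rise from pESCs minus the rise from ESCs, tests the same question with the stem cells taken into account. Of the 8 genes 0 passed, with 19.1% of all genes called in either direction. With p below 0.05 before adjustment, and 2-fold, 1 passed, Nanos3, and voom on recovered reads called 1, Dazl (−1.05, adjusted p = 0.00478). The values were −0.82 ± 0.27 for Dazl (limma adjusted p = 0.0645), 1.18 ± 0.40 for Nanos3 (adjusted p = 0.0688), −0.93 ± 0.45 for Elavl2 (adjusted p = 0.187), 0.61 for Nanos1, 0.48 for Pum2, −0.21 for Ddx4 and −0.07 for Dnd1.

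These calls turned on 1 library and on scale. Without pESC replicate 1, Dazl was at −1.11 (limma adjusted p = 0.00638) and Elavl2 at −1.36 (adjusted p = 0.0469), and both would be called. After median centring they were at −1.61 and −1.62, and after quantile normalization at −1.09 and −1.56, again called. Nanos3 was called where the 4 cultured groups were fitted alone (adjusted p = 0.00893) and where genes under 1 TPM were dropped (adjusted p = 0.0473).

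PGCs were then set beside each kind of PGCLC. Against ESC-PGCLCs 1 of the 8 genes was called, Nanos1, which was higher in PGCs by 1.09 ± 0.31 (limma adjusted p = 0.0302), with 12% of all genes called higher. Of all calls 86.4% were higher, and 40.1% after median centring. The call was lost without ESC-PGCLC replicate 2 (0.80, adjusted p = 0.152), without PGC replicate 1 (0.96, adjusted p = 0.128) and without PGC replicate 2 (1.22, adjusted p = 0.0552), and it was 0.53 after median centring. Dnd1 was higher by 0.67 ± 0.16 (adjusted p = 0.0177), under 2-fold. Dazl was at 0.22, Ddx4 at −0.17, Nanos3 at −0.01, Elavl2 at −0.03 and Pum2 at 0.57. In this fit alone, the intervals for Dazl (−0.22 to 0.66) and Ddx4 (−0.82 to 0.47) leave out a 2-fold difference. Over all settings the difference itself ran from −0.43 to 0.28 for Dazl and from −0.82 to 0.16 for Ddx4. All 8 gonadal somatic markers were called higher in PGCs than in ESC-PGCLCs, and their part in the Nanos1 difference was not tested.

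Against pESC-PGCLCs 0 of the 8 passed, and 3.67% of all genes were called in either direction. That share rests on 1000 genes, which became 50 without pESC-PGCLC replicate 1, 15 without pESC-PGCLC replicate 2, 119 without PGC replicate 1 and 2015 without PGC replicate 2. With p below 0.05 before adjustment, and 2-fold, 1 passed, Elavl2, and voom on recovered reads called 1, again Elavl2 (1.00, adjusted p = 0.0175). In the limma fit Elavl2 was at 1.01 ± 0.32 (adjusted p = 0.0826), Nanos3 at −0.89 ± 0.28 (adjusted p = 0.0834), Dazl at 0.88 ± 0.19 (adjusted p = 0.036) and Dnd1 at 0.67 ± 0.16 (adjusted p = 0.0449). Dazl and Dnd1 were under 2-fold, and Nanos3 was called without PGC replicate 2 (−1.36, adjusted p = 0.0124). Both comparisons use the same 2 PGC libraries. Against ESC-PGCLCs the median of the 8 was 0.17, below the 0.27 of all genes, with 5 of the 8 higher in PGCs and 3 lower. Against pESC-PGCLCs it was 0.57, above the 0.11 of all genes, with 6 higher and 2 lower. After median centring Dazl changed sign against ESC-PGCLCs, to −0.43, Pum2 to −0.06, and against pESC-PGCLCs both stayed above 0.

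**Figure D4:**
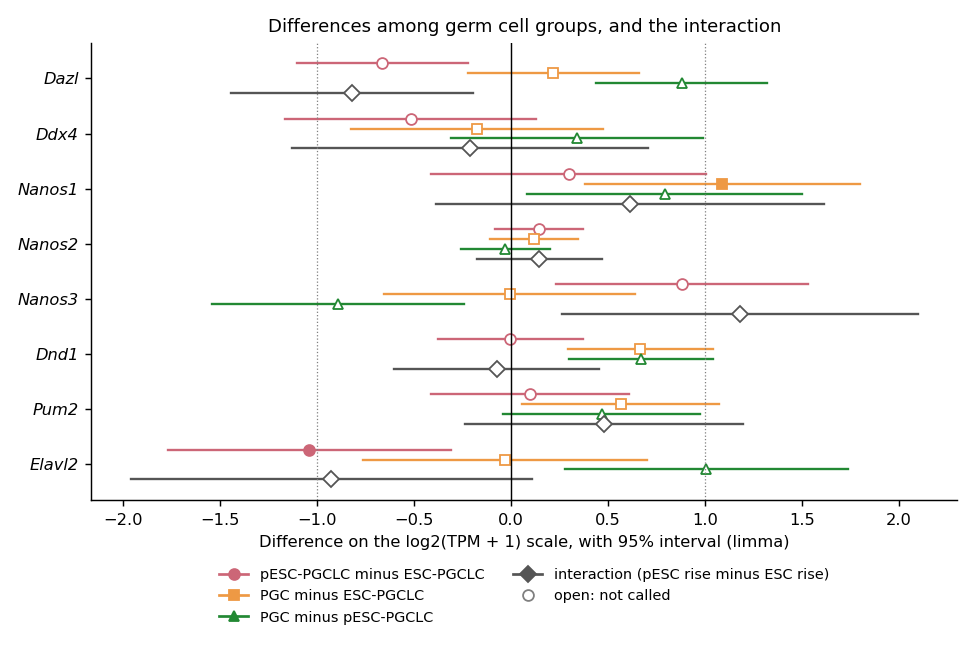
Differences on the log2(TPM + 1) scale with 95% limma intervals between germ cell groups, and the interaction; filled symbols passed the call, dotted lines mark 2-fold. Elavl2 in pESC-PGCLCs (−1.04) and Nanos1 in PGCs against ESC-PGCLCs (1.09) are the 2 filled symbols.

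The order of the group means was pESC-PGCLC, ESC-PGCLC, PGC from low to high for Dazl and Dnd1, and ESC-PGCLC, pESC-PGCLC, PGC for Nanos1 and Pum2. For Ddx4 and Elavl2 it was pESC-PGCLC, PGC, ESC-PGCLC, and for Nanos3 ESC-PGCLC, PGC, pESC-PGCLC. Neighbouring groups in these orders overlapped for Dnd1 and Nanos1 between the 2 kinds of PGCLC, for Ddx4 between PGCs and both PGCLCs, for Nanos3 between PGCs and ESC-PGCLCs, and for Elavl2 between PGCs and ESC-PGCLCs. In all 7 expressed genes the 2 stem cell groups held the lowest means.

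Of 10 family relatives (such as Boll, a DAZ family gene, and the helicase genes Ddx3x and Ddx25) 9 were tested, and 4 rose in ESC-PGCLCs, 5 in pESC-PGCLCs and 7 in PGCs, with 0 falling in any of the 3. Of all genes 15.3%, 20.8% and 25.3% were called higher in the same order, and 14.5%, 6.8% and 8.06% lower. The medians of the relatives were 0.78, 1.13 and 1.38, beside 2.34, 2.39 and 2.73 for the 8 genes, and the lists were not tested against each other. Boll rose by 2.24, 1.69 and 2.05, and Ddx25, a helicase known from spermatogenesis, by 1.69, 3.30 and 2.48, in the same order. The Ddx25 rise was larger from pESCs, with an interaction of 1.61 ± 0.29 (limma adjusted p = 0.00651).

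The CCR4-NOT deadenylase that NANOS proteins recruit was measured through 12 genes. In ESC-PGCLCs 3 rose and 2 fell, in pESC-PGCLCs 7 rose and 0 fell, and in PGCs 9 rose and 1 fell, with medians of 0.83, 1.11 and 1.46, beside the shares of all genes given above (15.3% higher and 14.5% lower, 20.8% and 6.8%, 25.3% and 8.06%). Cnot11, a subunit gene of the complex, rose by 1.86 in both kinds of PGCLC and by 2.44 in PGCs. Cnot8, which codes for a catalytic subunit, fell by 2.71 in ESC-PGCLCs (limma adjusted p = 1.57e-05) and was the gene of this list with the largest interaction, 2.16 ± 0.26 (adjusted p = 0.00113). From pESCs its group mean fell less, from 52.9 to 35.5 TPM. In ESC-PGCLCs 8 of the 12 were higher and 4 lower than in ESCs, called or not. Cnot7 went from 19.1 to 34.5 TPM and Cnot6l from 1.60 to 7.81 TPM. Tob1, whose protein links messenger RNA to the deadenylase, rose by 1.90 in ESC-PGCLCs.

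Of 14 other translation regulators of germ cells, 10 rose and 2 fell in ESC-PGCLCs, 9 rose and 2 fell in pESC-PGCLCs, and 11 rose and 1 fell in PGCs, with medians of 1.63, 1.67 and 2.02. The shares of all genes were 15.3%, 20.8% and 25.3% called higher and 14.5%, 6.8% and 8.06% lower. Rbm46, whose protein binds RNA in meiotic germ cells, rose by 6.13, 6.38 and 6.31 on the log2(TPM + 1) scale. It had 0 to 7 recovered reads in a stem cell library, so the size of its rise depends on the added 1. Group means of Rbm46 were 81.9 to 88.1 TPM in germ cells, where those of Dazl were 1100 to 2027 TPM. Meioc, a meiotic gene, rose by 5.20, 4.87 and 5.47, and Cpeb1, a regulator of poly(A) tail length, by 4.07, 4.25 and 5.04. Lin28a, a regulator of let-7 microRNA, was higher in PGCs than in ESC-PGCLCs by 1.24 ± 0.17 (limma adjusted p = 0.0028). The lists were chosen with results of these data known, and the counts describe them without a list test.

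**Figure D5:**
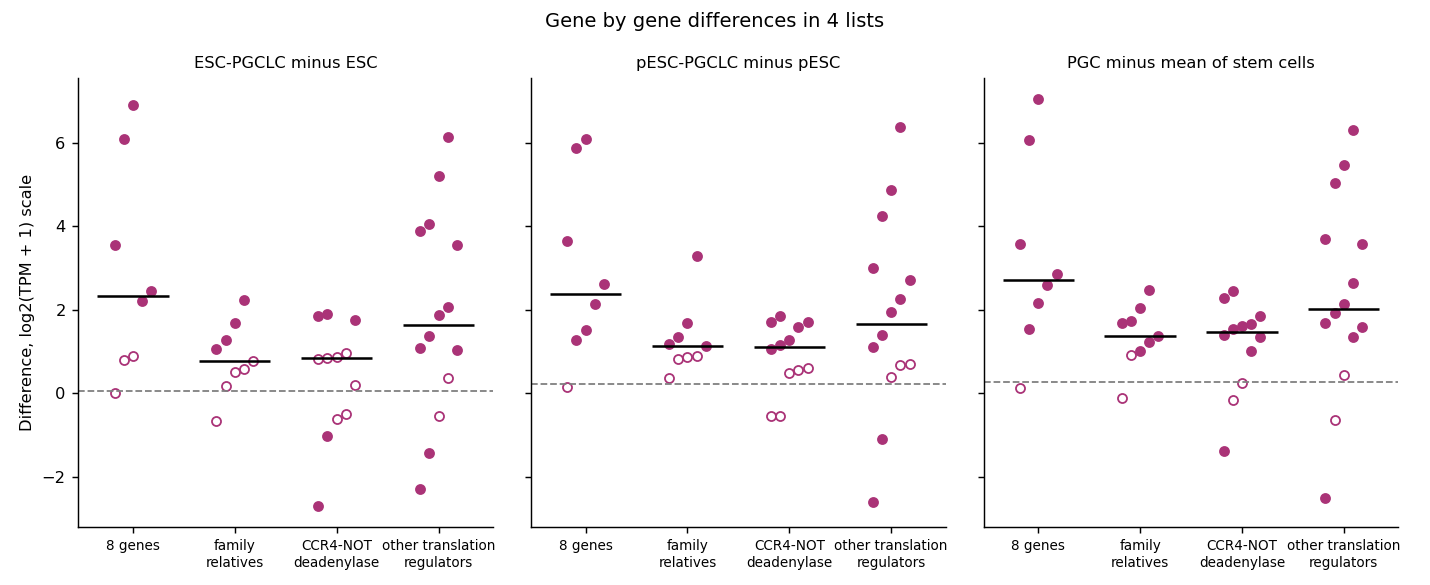
Difference of each gene on the log2(TPM + 1) scale in 3 comparisons, for the 8 genes and 3 other lists (filled: called; open: not called); the black line is the list's median and the dashed line the median of all 27259 tested genes. The medians of the 8 are 2.34, 2.39 and 2.73, and 3 genes of the list of other regulators, Rbm46, Meioc and Cpeb1, exceed 4 in each panel.

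Genes of like pattern were sought by Pearson's r over the 10 libraries among 11187 genes with a group mean of at least 5 TPM. For Dazl these were Meioc (r = 0.999), Heca and Bmi1, and for Ddx4 Hccs, Zfp711 and Slc25a31, with r of 0.998 to 0.999. For Nanos3 they were Syce1, Ube2t and Hpf1, for Nanos1 Zfp346, Sall3 and Ncoa1, for Dnd1 AU015836, Cep85l and Rassf3, for Pum2 Srek1, Tmpo and Cacul1, and for Elavl2 Lig3, Rffl and Tut4. The libraries form a stem cell level and a germ cell level, which alone gives a high r. Within the 6 germ cell libraries r was 0.941 for Dazl with Meioc and 0.68 for Ddx4 with Slc25a31, and 0.998 for Elavl2 with Tut4. These are descriptions over libraries that share groups, depth and scale.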

How the data were processed

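RNA-seq of 10 mouse libraries was used, 2 in each of 5 groups. Per the methods, the authors used Hisat2 for mapping (build mm10), Feature-counts for reads per gene and DESeq2 in R 3.4.2. Per the labels, the processing notes also name Bowtie2 and RSEM. The methods give Smart-seq2 on sorted or cultured cells and the labels another library kit, which was not resolved. The deposited values are TPM for 36066 genes, summing to 1000000 per library. Symbols were matched to GENCODE M21, 35861 of them to a single gene and 73 to several. TPM times exon length, divided by a factor per library, was within 0.05 of a whole number for 95.9% to 96.7% of values under 200 reads, and these recovered reads gave the depth.

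Genes reaching 0.1 TPM in 2 or more libraries, 27259 in number, were fitted as log2(TPM + 1) with limma 3.58.1 in R 4.3.3, with a mean per group, all 10 libraries, empirical Bayes variances with trend, 5 residual and 2.81 prior degrees of freedom. P-values were adjusted by Benjamini-Hochberg across every tested gene, for each of 8 comparisons. A two-sided exact permutation test of 2 against 2 libraries cannot go below p = 0.333. The fit was tested on simulated data. The genes and lists were chosen with earlier results of these data known. Named from each companion list are up to 3 called genes of largest change per comparison, and per gene the 3 of highest r. Alternatives were a pseudocount of 0.1, filters of none and 1 TPM, the compared groups alone, quantile normalization, median centring, no trend, a replicate block, unadjusted p, no fold minimum and each library left out. Added after seeing the data was voom on recovered reads. Tables and figures were made in Python 3.11.15 (matplotlib 3.10.9, numpy 2.4.6, pandas 2.3.3). The methylation data of the study were not analysed here.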

Additional observations from a re-analysis of the deposited data

Results flagged for a closer look

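None of the 8 genes was flagged, and groups of 2 libraries are too small for a test of outlying libraries. Of the genes of the 3 companion lists, 9 were flagged because the change from pESCs differed from the change from ESCs. The difference was a called interaction in limma, on the log2(TPM + 1) scale. Not all of these changes were rises. Group means of Cnot8 fell from 88.0 to 12.6 TPM in ESC-PGCLCs and from 52.9 to 35.5 TPM in pESC-PGCLCs. Those of Cnot9, Cnot10 and Pum3 fell from ESCs and rose from pESCs. The deadenylase genes were Cnot8 at 2.16, Cnot10 at 1.68, Cnot9 at 1.63, Cnot1 at 1.08 and Tob1 at −1.33. Tob1 was the 1 below 0, with a smaller rise from pESCs. The family relatives were Ddx25 at 1.61, Pum3 at 1.56 and Elavl1 at 1.01, and Lin28a among the other regulators stood at 1.02. In this comparison the median of all genes was 0.21, and 19.1% of them were called.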

How the results depend on the processing

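The 8 genes were refitted under 10 other settings, on leaving out each library in turn, and with voom on recovered reads, added after seeing the data. The 7 genes other than Nanos2 stayed above 0 in all 3 comparisons of germ cells with stem cells under all of these, between 0.52 and 7.20, and the cause of the changes below was not tested unless the setting's construction shows it. Nanos2 had 5 recovered reads in all, too few for its values to be read as differences. Whether depth or absence of the transcript gave so few reads was not tested.

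Between the 2 kinds of PGCLC the number of the 8 genes called, 1 in the report, was 0 with a pseudocount of 0.1, without a filter, without a variance trend, with the replicate block and on leaving out any library (range 0 to 0), and 2 without a fold minimum or after median centring. Between PGCs and ESC-PGCLCs it was 1 in the report, 0 with a pseudocount of 0.1, without a filter, after quantile normalization, after median centring and with the compared groups alone, 2 without a fold minimum and 0 to 1 on leaving out a library. Between PGCs and pESC-PGCLCs it was 0 in the report, 1 at an unadjusted p and with voom, 2 without a fold minimum and 0 to 1 on leaving out a library. For the interaction it was 0 in the report, 1 with a filter of 1 TPM, at an unadjusted p, with the 4 cultured groups alone and with voom, 2 after quantile normalization or median centring, and 0 to 2 on leaving out a library.

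Reversals of sign touched only differences that were not called in the report. With voom, Nanos2 was 0.40 between PGCs and pESC-PGCLCs, where a pseudocount of 0.1 gave 0.036, and −0.11 in the interaction. After quantile normalization Elavl2 was 0.084 between stem cells, Nanos1 −0.037 and Pum2 −0.28 between PGCLCs, and Pum2 −0.25 in the interaction. After median centring Nanos3 was 0.010 and Elavl2 0.16 between stem cells, Nanos1 −0.061 and Pum2 −0.33 between PGCLCs, Dazl −0.43 and Pum2 −0.063 between PGCs and ESC-PGCLCs, and Pum2 −0.29 in the interaction. On leaving out 1 library, pESC against ESC ran from −0.14 to 0.45 for Dazl, −0.66 to 0.046 for Ddx4, −0.65 to 0.017 for Nanos1 and −0.55 to 0.32 for Elavl2, and Dnd1 between PGCLCs from −0.17 to 0.17. PGC against ESC-PGCLC ran from −0.51 to 0.16 for Ddx4, −0.48 to 0.47 for Nanos3 and −0.31 to 0.25 for Elavl2, and the interaction from −0.56 to 0.15 for Ddx4 and −0.24 to 0.10 for Dnd1.

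Of 126 counts over all genes 33 moved by over 1.5 times, and of 126 counts over the 8 genes 30 did. Beside the counts of the 8 given above, 3651 of 27259 genes were called between PGCLCs, 6496 without a fold minimum and 2983 after median centring. Between PGCs and ESC-PGCLCs 3772 were called, 8471 without a fold minimum and 1952 after median centring. Between PGCs and pESC-PGCLCs 1000 were called, 1459 at an unadjusted p and 2438 without a fold minimum. For the interaction 5197 were called, 6082 at an unadjusted p, 3871 after quantile normalization and 3885 after median centring. Calls that were higher made up 77.0% of all between PGCLCs and 51.8% after median centring (56.4% after quantile normalization), 81.5% of the interaction and 48.5% (57.6%), 56.4% between PGCs and pESC-PGCLCs and 25.8% (33.4%), and 21.1% between stem cells and 69.9% (53.3%). Fits of the compared groups alone, with 2 residual degrees of freedom, called 0 genes between the stem cells and between PGCs and either PGCLC. Replicate numbers did not pair the libraries: deviations of the same number correlated at −0.05 to 0.24. With the replicate block the Elavl2 difference between PGCLCs kept its size and had a limma adjusted p of 0.0577, and 78 in place of 213 genes were called between the stem cells.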
